A study of Mus musculus with 8 samples.

Results

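Among 46314 single cells kept from 8 libraries of mouse brain leukocytes, 442 cells (0.954%) carried transcripts of Gzmc, the gene of the serine protease granzyme C, together with genes of natural killer (NK) cells. These cells were selected on 8 genes. A member had at least 1 unique molecular identifier (UMI, a tag that marks 1 captured transcript) of Gzmc, at least 2 of the 4 NK genes Ncr1, Klrb1c, Xcl1 and Klre1, and no UMI of Cd3e, Cd3d or Cd79a. Barcodes were kept if they had at least 500 UMIs, 200 genes and at most 5% mitochondrial UMIs, and if their top antibody hashtag had at least 50 counts and at least 3 times the second one. The 442 members made up 16.7% of the 2652 cells that met the same conditions without the one on Gzmc. The other 2210 cells, which had 0 Gzmc UMIs, served as comparators throughout and are called Gzmc-negative NK cells.

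The study asked how intestinal inflammation changes immune cells in the brain of a mouse model of amyloid accumulation. Wild-type (WT) mice and App NL-G-F mice, a model in which amyloid-β builds up because the endogenous App gene was edited by knock-in (the letters stand for the Swedish, Arctic and Iberian changes of familial Alzheimer's disease, placed beside humanizing ones), each gave 4 libraries. These came from mice on plain water, from mice with acute colitis (2% dextran sulfate sodium, DSS, for 7 days), from mice with chronic colitis (3 cycles of 2% DSS and water of 5 days each), and from mice with food allergy to ovalbumin (sensitisation with alum followed by oral ovalbumin). All groups were 16 weeks old by the labels, while the study's methods give a younger age. Cells were taken after perfusion with saline, and CD45.2+ cells were sorted, so each library holds leukocytes of all kinds. An anti-CD45 antibody given into the blood stained intravascular cells, but this stain left no trace in the deposited counts, and cells inside vessels cannot be told apart here. Each genotype and treatment combination was 1 library, in which up to 4 hashtags marked separate samples. The sample numbers that the study states for App NL-G-F mice equal the hashtags found in the control and food allergy libraries, but exceed them in acute colitis and are fewer in chronic colitis. Hashtag groups may therefore share an animal, whether a sample was 1 mouse or a pool is not given in the sources used here, and p-values measure the spread between libraries or hashtag groups, which may be partly technical.

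NK cells and group 1 innate lymphoid cells (ILC1) are lymphocytes without rearranged antigen receptors that make interferon-γ and kill target cells with granzymes and perforin. Circulating NK cells depend on the transcription factor Eomes and carry the integrin Itga2 (CD49b), whereas ILC1 and tissue-resident NK cells carry Itga1 (CD49a) and the chemokine receptor Cxcr6 and stay within tissues. Granzyme C is one of a family of granule proteases and has been used to mark ILC1 in mouse tissues.

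Gzmc (ENSMUSG00000079186) lies on the minus strand at chr14:56231441-56234656 in GRCm38, the mm10 build named in the submitters' notes. Gzmb lies next to it at chr14:56258838-56262260, in the same cluster as Gzmd, Gzme, Gzmf, Gzmg and Gzmn, whereas Gzma is at chr13:113093825-113100981. The members held 5266 Gzmc UMIs and 3076 Gzmb UMIs, but 0 UMIs of Gzmd, Gzme, Gzmg and Gzmn and 1 UMI of Gzmf. Reads shared between such close copies may be lost or assigned to either, so counts of 0 for these paralogs are uncertain. The start regions of the gene that selected the members, of the 2 granzymes that moved with and against it, and of a close relative without UMIs are printed to show how alike they are. They run 5′ to 3′ on the gene's strand from 250 bases before to 50 bases after the RefSeq start, in GRCm38.p6, and capitals mark matches on either strand to TGACGTCA (CRE), TGAGTCA (AP-1), ACCACA (RUNX) and TCACAC (T-box). In the printed windows no match overlaps another.
Gzmc: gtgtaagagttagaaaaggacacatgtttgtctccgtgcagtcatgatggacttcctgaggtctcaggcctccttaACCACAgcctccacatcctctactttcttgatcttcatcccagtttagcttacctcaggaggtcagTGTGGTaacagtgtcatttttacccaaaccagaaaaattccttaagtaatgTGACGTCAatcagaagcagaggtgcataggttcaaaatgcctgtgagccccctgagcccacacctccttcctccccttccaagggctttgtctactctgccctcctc
Gzmb: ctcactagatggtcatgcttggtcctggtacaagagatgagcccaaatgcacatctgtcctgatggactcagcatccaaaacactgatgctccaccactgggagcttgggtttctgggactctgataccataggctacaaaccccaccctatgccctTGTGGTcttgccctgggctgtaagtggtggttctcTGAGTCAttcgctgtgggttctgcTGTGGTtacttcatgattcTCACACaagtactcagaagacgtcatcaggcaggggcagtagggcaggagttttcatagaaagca
Gzma: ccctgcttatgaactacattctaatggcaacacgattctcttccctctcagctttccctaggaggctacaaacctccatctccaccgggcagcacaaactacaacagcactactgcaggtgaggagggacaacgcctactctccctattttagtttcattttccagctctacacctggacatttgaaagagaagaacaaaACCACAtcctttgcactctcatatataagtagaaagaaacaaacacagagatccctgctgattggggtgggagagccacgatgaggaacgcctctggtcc
Gzmd: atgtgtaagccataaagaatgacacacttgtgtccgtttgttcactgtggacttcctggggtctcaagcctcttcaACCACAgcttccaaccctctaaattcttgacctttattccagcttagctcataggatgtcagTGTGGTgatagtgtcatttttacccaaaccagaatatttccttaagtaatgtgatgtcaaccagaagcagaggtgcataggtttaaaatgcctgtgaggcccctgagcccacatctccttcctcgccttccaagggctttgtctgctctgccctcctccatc
The windows are chr14:56234608-56234907 for Gzmc, chr14:56262285-56262584 for Gzmb, chr13:113100932-113101231 for Gzma and chr14:56132544-56132843 for Gzmd, all on the minus strand. The Gzmd window was identical to that of Gzmc at 83.4% of aligned positions and the Gzme window at 83.8%, against 46.5% for Gzmb and 47.2% for Gzma. The Gzmc window held a CRE match at position -57 from the start and RUNX matches at -174 and -108. A CRE match also lay in the windows of Gzmf (-82) and Gzmg (-77), which are not printed and had 1 and 0 member UMIs. The Gzmb window held an AP-1 match at -58, RUNX matches at -93 and -34, and a T-box match at -15, and that of Gzma only a RUNX match at -50. Of 32851 mouse windows of the same length, 1.79% held the CRE letters, 5.20% the AP-1, 16.8% the RUNX and 14.5% the T-box letters. These matches describe letters and were not tested against the expression values.

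Library totals ranged from 26988646 to 56307389 UMIs, 4479 to 6747 cells were kept per library, and the median kept cell of a library had 2647 to 3968 UMIs. Members and comparators were of similar depth, with medians of 3340 and 3111 UMIs, 1577 and 1515.5 genes, and 0.887% and 0.924% mitochondrial UMIs. Of the 442 members, 22 had barcodes that also occurred in another library, and no barcode belonged to members of 2 libraries. Doublets with different hashtags were removed by the 3-fold rule, and doublets within a hashtag were left in. Cells with clear transcripts of another lineage (neutrophil, macrophage, B cell or erythrocyte genes) made up 27 of 442 members (6.11%) and 156 of 2210 comparators (7.06%). They were chosen by UMIs of S100a8, Lyz2, Igkc, Ighm, H2-Aa, Cst3, Hbb-bs, Cd79b or Ms4a1.

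The values that selected the members are given as a description. Gzmc was broad in level, with a median of 4 UMIs and up to 200 UMIs per member. At the edge of the gate, 135 members (30.5%) had exactly 1 Gzmc UMI and 50 had 2, whereas 127 (28.7%) had at least 10. Just outside it were 26 cells with a Gzmc UMI and only 1 of the NK genes, 17 with none of them, and 79 with at least 2 NK genes that also had a Cd3e, Cd3d or Cd79a UMI. All 4 NK genes were present in 213 members, 3 of them in 171 and 2 in 58. The members held 84.3% of all 6249 Gzmc UMIs, and a Gzmc UMI occurred in 0.136% of 11727 B cells, which should lack it, at a median of 2542 UMIs per cell. In CPM (UMIs of a gene per 1000000 UMIs) summed per library, Gzmc in the members was lowest at 1849, had a median of 3445 and reached 4445 over the 8 libraries. Ncr1, the activating receptor NKp46, ranged from 667 to 931 CPM in the members, Klrb1c (NK1.1) from 466 to 930, and the chemokine Xcl1 from 1231 to 2703. Among the comparators Xcl1 ranged from 479 to 1221 CPM, so that all 8 member values were above all 8 comparator values.

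Many genes that define other lineages were at or near 0 in the members, but not all were. Il5, Il13, Il17a, Il17f and Cd5 had 0 UMIs among 1724763 member UMIs, which allows up to 1.74 CPM each. Cd4 had 3 UMIs, Cd8a had 1, Il1rl1, the IL-33 receptor of group 2 innate lymphoid cells (ILC2), had 7, and Il22, a cytokine of group 3 cells, had 3. Ms4a1, a B cell gene, had 2. Over all members pooled, however, the T cell genes Cd3g (156 CPM, against 51.6 in the comparators), Trbc1 (80.6 against 76.1) and Trbc2 (118 against 88.0), the immunoglobulin gene Ighm (242 against 261) and Gata3 (60.3 against 60.4) were clearly above 0. The name ILC1-like was checked against genes that the gate did not use, in the comparison with Gzmc-negative NK cells.

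Within each library, members were higher than comparators in Itga1, Cxcr6, Zfp683 and Gzmb and lower in Eomes, Itga2, Gzma and Klf2. UMIs were summed per library over members and over comparators, and edgeR's quasi-likelihood test with library as a block was run on 8801 genes, leaving out the 8 gate genes. At a Benjamini-Hochberg adjusted p below 0.05, 197 genes (2.24%) were higher in the members and 325 (3.69%) were lower, and the median log2 fold change over all tested genes was -0.02. All adjusted p-values for members against comparators below are from this fit. A lower sum can reflect fewer cells with a transcript or fewer transcripts per cell.

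**Figure D1:**
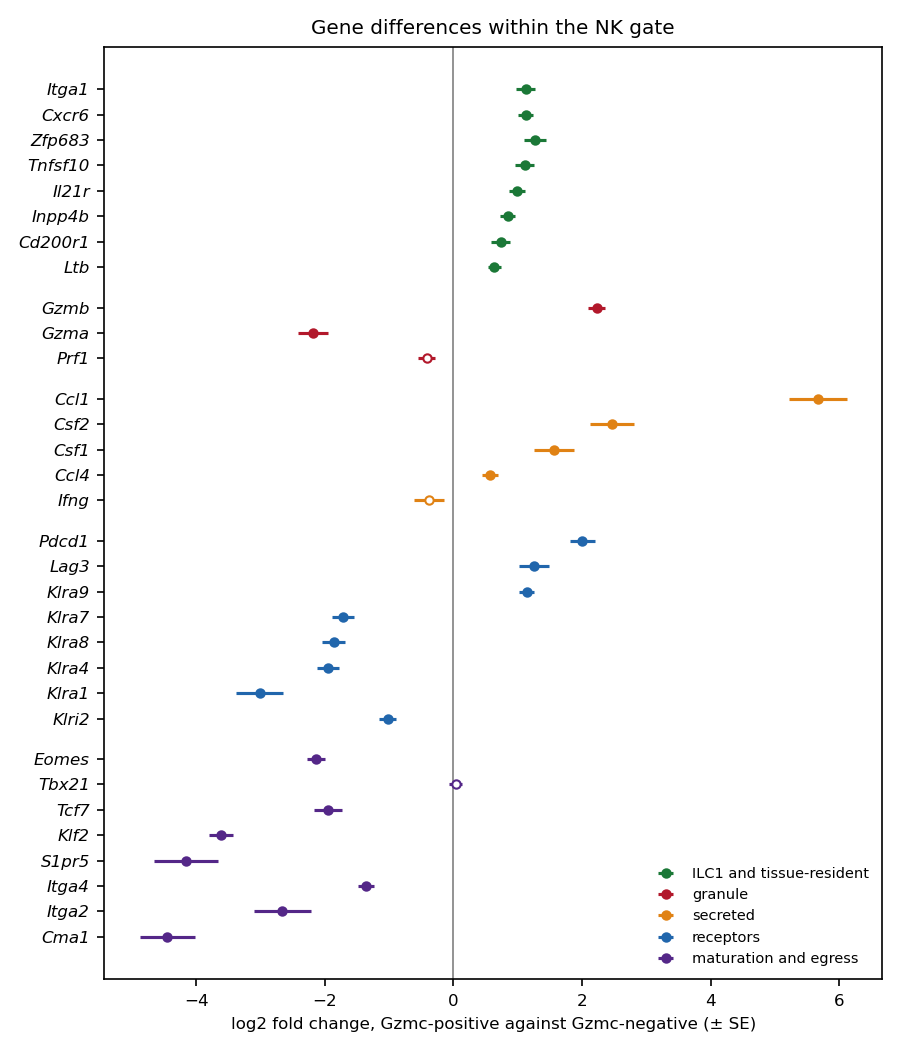
Log2 fold change of members over Gzmc-negative NK cells (x axis, points with bars of 1 standard error, edgeR fit over 8 libraries) for the defining genes and list genes named on the y axis, coloured by kind of gene, with open circles for an adjusted p of 0.05 or above. Residency genes such as Cxcr6 (1.12) and Itga1 (1.12) lie to the right of 0, circulation genes such as Klf2 (-3.61) and S1pr5 (-4.16) to the left, and Tbx21 (0.03) on 0.

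Genes of ILC1 and tissue residency were mostly higher. Of 19 tested genes of this list, 11 rose and 2 fell, with a median log2 fold change of 0.64. Itga1, which binds collagen, was at 110, 178 and 217 CPM (lowest, median and highest of 8 libraries) in the members and at 45.9, 76.9 and 98.9 in the comparators, without overlap (log2 fold change 1.12, SE 0.149, adjusted p = 1.57e-05). Cxcr6, whose ligand holds lymphocytes in tissues, was at 464, 556 and 734 against 146, 273 and 410 CPM and also did not overlap (1.12, SE 0.117, adjusted p = 4.6e-07). Zfp683 encodes Hobit, a transcription factor of resident lymphocytes and liver ILC1. It rose by 1.27 (SE 0.173, adjusted p = 2.32e-05), from 20.6 to 83.8 CPM in the comparators to 51.6 to 168 in the members, where the ranges overlapped although the members were higher in all 8 libraries. Tnfsf10, the death ligand TRAIL that liver ILC1 carry, rose by 1.11 (adjusted p = 1.2e-05), and its member range of 103 to 165 CPM lay above the comparator range of 37.2 to 79.1. The E-cadherin-binding integrin Itgae (2.22, adjusted p = 0.00471) and the repressor Hic1 (1.86, adjusted p = 0.0401) also rose, but at medians of only 17.0 and 13.7 CPM in the members, and Hic1 lost the call without any 1 of the WT libraries or App NL-G-F control (1.62 to 1.84). Il21r, Inpp4b, Cd200r1, Ltb and Tmem176a made up the remaining rises, with log2 fold changes from 0.48 to 0.99. The exceptions were Il7r, the receptor chain for interleukin 7, at -0.60 (adjusted p = 0.0324), and Ctla2a at -0.70. Il7r lost the call without App NL-G-F control, acute colitis or food allergy or without WT food allergy (-0.62 to -0.48). Against only the 942 comparators with a Gzma UMI, Il7r was instead higher in the members (1.07, adjusted p = 0.0185), so the sign of this gene depends on which NK cells it is set against. After every cell was thinned to equal depth, Cxcr6 was detected in 44.1% of members, 44.1% of T cells and 31.8% of ILC2. In the same order Ltb was in 58.9%, 58.8% and 58.1%, and Inpp4b in 30.9%, 21.8% and 42.7%. Cxcr6, Ltb and Inpp4b were therefore not particular to the members. Itga1 (13.4%, 4.88% and 0.146%), Zfp683 (13.0%, 2.64% and 0.0486%) and Tnfsf10 (13.0%, 3.15% and 2.43%) were detected more often in members.

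**Figure D2:**
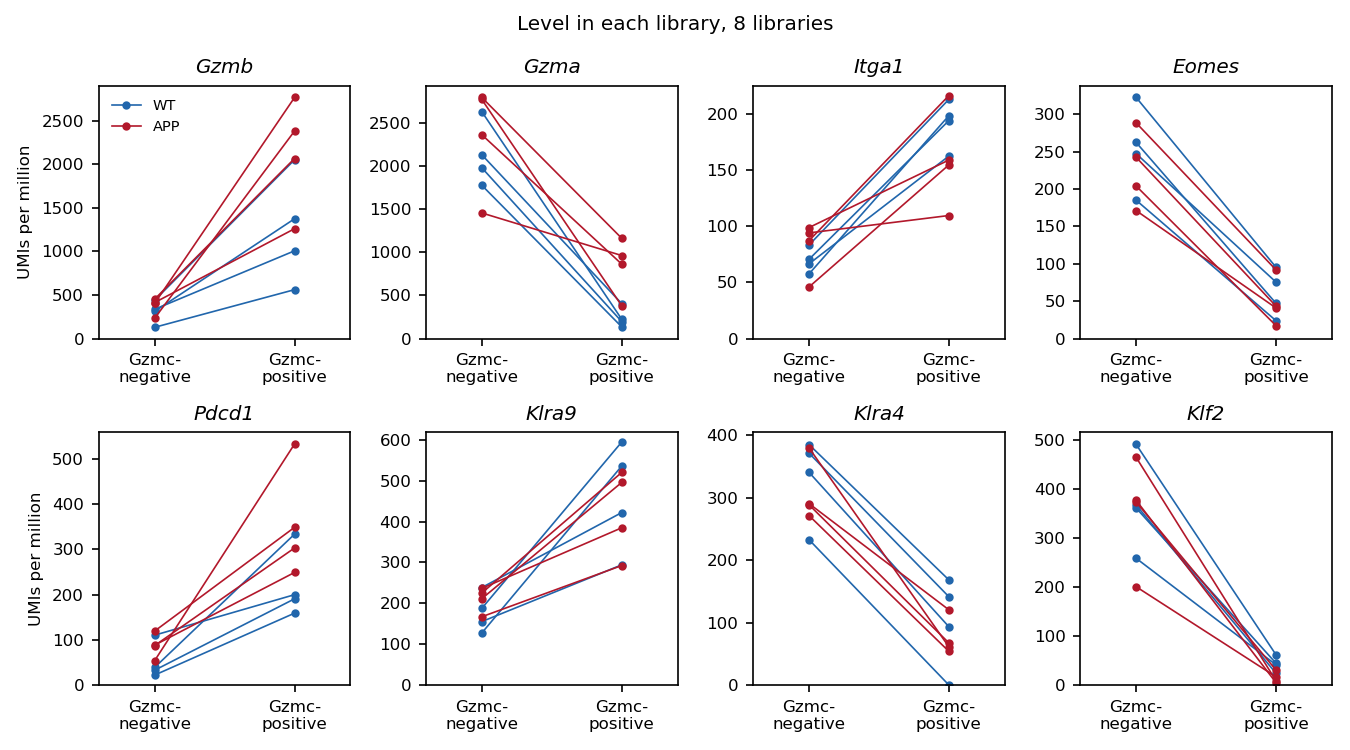
Level of 8 genes (panels, y axis in CPM of UMIs summed per library) in Gzmc-negative NK cells and in members (Gzmc-positive) of the same library, joined by a line for each of 8 libraries, in blue for WT and red for App NL-G-F (APP) mice. Gzmb, Itga1, Pdcd1 and Klra9 rise and Gzma, Eomes, Klra4 and Klf2 fall along every line, and Gzma ends at 379 CPM or more in all 4 App NL-G-F libraries.

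Genes of mature circulating NK cells were mostly lower, with 12 of 20 falling, 1 rising and a median log2 fold change of -1.91. Eomes was at 17.2, 45.2 and 95.3 CPM in the members against 171, 245 and 323 in the comparators, with no overlap (-2.14, SE 0.146, adjusted p = 2.25e-10). Itga2 was detected at 0 to 12.2 CPM against 18.2 to 35.1 (-2.66, adjusted p = 0.000278). Klf2, the factor that maintains the egress receptor S1pr1, was at 4.81 to 61.7 against 201 to 492 CPM (-3.61, SE 0.188, adjusted p = 1.52e-12). The egress receptors S1pr5 (-4.16, adjusted p = 3.3e-06) and S1pr1 (-2.31, adjusted p = 0.0111), the maturation marker Klrg1 (-3.39), the integrin Itgam (-1.63) and the mast cell protease gene Cma1 (-4.45) fell as well, each at a member median of at most 13.6 CPM. Tbx21, which encodes the factor T-bet that both ILC1 and NK cells need, was at 147 to 284 CPM in the members and 138 to 255 in the comparators (log2 fold change 0.03, adjusted p = 0.999).

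Immature NK cell genes were lower too. Of 8 tested genes, 6 fell and 1 rose, with a median of -1.59. The transcription factor Tcf7 fell by 1.95 (adjusted p = 1.6e-06), the adhesion protein gene Emb by 1.88 (adjusted p = 7.67e-10), the receptor Slamf6 by 3.53 (adjusted p = 0.000131) and Lef1 by 1.31 (adjusted p = 0.00032).

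The granzymes moved in opposite directions. Gzmb, a granzyme that triggers caspases in target cells, was at 561, 1713 and 2767 CPM in the members and at 129, 369 and 451 in the comparators (log2 fold change 2.23, SE 0.131, adjusted p = 1.28e-11). Gzma, a granzyme with tryptase activity, was at 135, 392 and 1161 CPM against 1454, 2244 and 2791 (-2.18, SE 0.232, adjusted p = 5.46e-07). For neither gene did any member value overlap a comparator value. After thinning every cell to 1000 UMIs, a Gzmb UMI remained in 56.4% of members, 20.3% of comparators and 0.156% of B cells (78.1%, 35.1% and 0.358% before thinning). A Gzma UMI remained in 15.9%, 36.4% and 0.243% (21.5%, 42.6% and 0.495% before thinning), so all these shares lay above the level of free RNA in B cells. Within the members, 83 cells had UMIs of both Gzmb and Gzma, 262 of Gzmb only, 12 of Gzma only and 85 of neither. Perforin (Prf1), which forms the pore for granzymes, was at 103 to 241 against 153 to 279 CPM, and its log2 fold change of -0.42 did not pass the test (adjusted p = 0.0779), although it did without the App NL-G-F acute colitis library (-0.52). Gzmm fell (-3.79, adjusted p = 0.00352) with 1 UMI left in the members, and Serpinb9b, a granzyme inhibitor, had 0 member UMIs, at least 14.3-fold lower than the 24.9 CPM of the comparators by a floor of 3 counts over the group. Of 17 tested genes of the granule list 4 rose and 4 fell, and the other rises were Cst7, Ctsw and Tnfsf10. Tnfsf10 is a death ligand rather than a granule gene, and it was also counted in the residency list above.

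**Figure D3:**
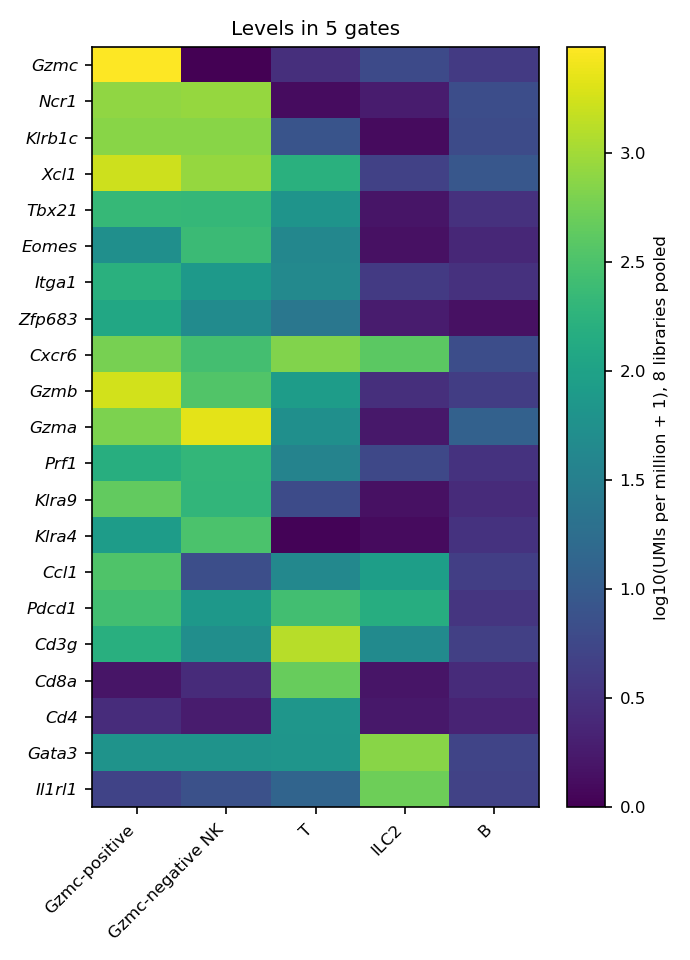
Level of selected genes (rows) in members, Gzmc-negative NK cells, T cells, ILC2 and B cells (columns), as the log10 of CPM plus 1 over 8 pooled libraries on a colour scale, with no replicate error shown. Colours are to be compared along a row, where Gzmb is brightest in the members, Eomes and Gzma in Gzmc-negative NK cells, and Gata3 and Il1rl1 in ILC2.

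Among NK receptors and their adaptors, 6 of 29 rose and 8 fell, with a median of -0.13. The Ly49 inhibitory and activating receptors, which recognise class I molecules, did not move as one. Klra9 rose from 127, 199 and 238 CPM in the comparators to 292, 459 and 595 in the members (1.14, SE 0.12, adjusted p = 4.84e-07), while Klra4 fell from 233, 316 and 385 to 0, 80.3 and 168 CPM (-1.95, SE 0.177, adjusted p = 4.32e-08). Klra8 (-1.86), Klra7 (-1.72) and Klra1 (-3.01) also fell without overlap between the ranges, as did Klri2 (-1.02). In single members Klra9 without Klra4 was seen in 203 cells, Klra4 without Klra9 in 12, both in 16 and neither in 211. Ly49 genes are close copies of each other, so reads shared between them make single-gene counts uncertain. The inhibitory receptors Pdcd1 (PD-1) and Lag3 rose by 2.00 (SE 0.192, adjusted p = 1.15e-07) and 1.25 (SE 0.24, adjusted p = 0.00139). Pdcd1 was at 159, 276 and 533 CPM in the members and at 22.0, 70.5 and 119 in the comparators, and after thinning it was detected in 20.0% of members, 6.34% of comparators and 0.148% of B cells. It was also detected in 19.5% of T cells and 12.3% of ILC2 after thinning, so it was not particular to the members. The signalling chain Cd247 fell by 1.27 (adjusted p = 0.000478), whereas the chain Fcer1g rose slightly (0.22, adjusted p = 0.0132).

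Among transcription factors, 1 of 25 rose (Zfp683) and 6 fell, with a median of -0.10. Besides Eomes, Tcf7, Lef1 and Klf2, the falls were Id3 (-3.15, adjusted p = 0.000893) and Ets1 (-0.43, adjusted p = 0.00948). Id2, which all innate lymphoid cells require, was at 461 to 698 CPM in the members and 376 to 556 in the comparators (0.25, adjusted p = 0.0535).

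Secreted mediators showed 5 rises and no fall among 15 tested genes. The growth factors Csf2 (GM-CSF) and Csf1 rose by 2.47 (SE 0.341, adjusted p = 2.64e-05) and 1.56 (SE 0.308, adjusted p = 0.00177), with Csf1 at 16.8, 28.2 and 67.3 CPM in the members above 4.75, 10.1 and 14.4 in the comparators. The chemokine Ccl1 had the largest rise of the list, at 6.12, 282 and 707 against 0, 1.19 and 21.5 CPM (5.67, SE 0.448, adjusted p = 3.76e-09). It came from few cells. Its 570 UMIs lay in 32 members, and 5 of these held 82.1% of them. Csf2 was likewise in 23 members, of which 5 held 70.4% of the UMIs, whereas Gzmb was in 345 members and its top 5 cells held 11.0%. After thinning, a Csf2 UMI remained in 2.05% of members, 6.23% of ILC2 and 0.771% of T cells. A Ccl1 UMI remained in 4.32% of members, 5.01% of ILC2 and 0.350% of T cells. Neither gene was therefore particular to the members. The chemokine Ccl4 (0.57, adjusted p = 0.0049) and lymphotoxin β (Ltb, 0.64, adjusted p = 6.99e-05) rose in all 8 libraries. Ifng, the signature cytokine of these cells, was at 23.6 to 120 CPM in the members and at 34.8 to 149 in the comparators (-0.38, adjusted p = 0.493).

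Cytokine receptors split, with 5 rises and 5 falls among 16. The interleukin 2 receptor chains rose (Il2ra by 1.08, Il2rb by 0.27 and Il2rg by 0.56, adjusted p from 1.6e-05 to 0.0383), and both chains of the interleukin 18 receptor fell, Il18r1 by 1.37 (adjusted p = 1.89e-05) and Il18rap by 1.18 (adjusted p = 2.89e-05). Il2ra kept the call only without App NL-G-F or WT food allergy, and was at 0.92 to 1.10 without any other single library. Among trafficking genes, 4 of 27 rose and 10 fell. Ccr8, the receptor of Ccl1, rose by 1.24 (adjusted p = 0.0304) at 7.95 to 43.3 CPM, but lost the call without any 1 library other than WT control and WT food allergy (1.06 to 1.34). After thinning, a Ccr8 UMI remained in 2.95% of members, 21.2% of ILC2 and 1.95% of T cells. The marrow-retention receptor Cxcr4 fell by 1.77 (adjusted p = 6.89e-05) and the integrin Itga4, which binds VCAM-1 on endothelium, fell by 1.36 (adjusted p = 4.32e-08). Itga4 was at 62.6, 74.0 and 111 CPM in the members and at 133, 199 and 243 in the comparators, without overlap. Of 13 genes of the response to TGF-β, 3 rose (Itgae, Itga1 and Cish) and 2 fell (Car2 and Cd9), with a median of -0.01.

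T cell genes gave a mixed picture. The gate had removed cells with Cd3e or Cd3d, and of 7 tested T cell genes 1 rose and 3 fell. Cd3g, a CD3 chain that the gate did not use, rose from 15.3, 48.5 and 90.4 to 86.0, 166 and 221 CPM (1.63, SE 0.214, adjusted p = 1.39e-05), and after thinning was found in 11.1% of members, 3.75% of comparators and 0.347% of B cells. The γδ T cell receptor genes Trdc (-1.89, adjusted p = 0.000792) and Tcrg-C1 (-2.33, adjusted p = 0.0198) fell. Trac had 15 UMIs in all members, Trbc1 139 and Trbc2 203. Excluding cells with further T cell genes from both sets gave 163 genes higher and 284 lower.

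Outside the lists, large rises among genes that reached 50 CPM were those of Cxcl10 (2.36), Gm43042 (1.98), Sema6d (1.77), Isg15 (1.71), Asb2 (1.52), Ifit1 (1.42), Tmem273 (1.41), Tnfrsf9 (1.37) and Klk8 (1.26). The costimulatory receptor Tnfrsf9 (4-1BB) was at 122, 212 and 242 against 40.4, 73.4 and 100 CPM (adjusted p = 1.4e-06), with no overlap. Cxcl10, Isg15 and Ifit1 are interferon-induced genes. Their member values overlapped those of the comparators, and 5 of 16 members with Cxcl10 held 76.2% of its UMIs.

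The largest falls outside the lists were Iglv1 (-7.60), Camp (-7.47), Ngp (-6.50), Retnlg (-6.30), Lcn2 (-5.69), Iglc1 (-5.40), Mgp (-5.38), Wfdc21 (-4.87), Ltf (-4.72) and Lrg1 (-4.41), most of which are neutrophil granule genes. A single comparator cell held 99.5% of the Iglv1 UMIs, a single one held 93.7% of the Iglc1 UMIs, and 5 held 96.4% of the Mgp UMIs. Comparator cells with at least 10 UMIs held 98.7% of the Camp UMIs (17 cells) and 98.2% of the Ngp UMIs (21 cells). Without the WT acute colitis library Iglv1 changed by only -0.19 on the log2 scale and was not called. Of the myeloid list, 1 of 10 genes rose and 5 fell, and of the B cell list 2 of 4 fell, Cd74 (-1.23) and H2-Aa (-1.38). Of the S100a8 UMIs in the comparators, 98.4% lay in 31 cells with at least 10 each. After cells of other lineages were left out of both sets, 270 of 7520 tested genes (3.59%) were higher and 266 (3.54%) lower. S100a8 then changed by -0.11 (adjusted p = 0.856, against -5.24 with those cells) and S100a9 by 0.02 (adjusted p = 0.995, against -5.79), Cd74 turned to 0.85 (adjusted p = 0.0197), and H2-Aa was at -0.52 (adjusted p = 0.734). S100a8 and H2-Aa were among the genes used to choose the cells left out. Their smaller changes therefore followed from that choice, and the source of the falls was not tested. Eomes (-2.21), Gzmb (2.20), Gzma (-2.22) and Itga1 (1.05) were called as before. Ly6g, a neutrophil gene, had 0 member UMIs and was at least 8.75-fold lower than in the comparators. Whether this went with the cells of other lineages was not tested.

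The immediate-early genes, which are induced within minutes by stimulation and also by tissue dissociation, were lower in the members, with 9 of 10 tested genes falling and a median of -1.07. Examples are Fos (-1.55, adjusted p = 6.89e-05), Nr4a1 (-2.08, adjusted p = 1.03e-05), Fosb (-2.52), Jun (-1.06) and Dusp1 (-1.08). Of 10 heat shock genes 1 rose, and of 15 cell cycle genes only the histone gene H2afz fell (-0.66), with Mki67 and Top2a not passing the test. The immediate-early level also varied by hashtag in cells unrelated to the members. In T cells it fell into a low set of 14 hashtag groups (770 to 2069 CPM over the 10 genes) and a high set of 16 (3622 to 7355 CPM), with a 1.75-fold gap between them. The low set gave 66.3% of the members but 41.0% of the comparators. The comparison was therefore repeated within each set, over 7 libraries in the low set and 8 in the high set. WT acute colitis was left out of the low set, where it had fewer than 5 members. The part of the immediate-early state in the first result was not otherwise tested. Within the low set 1 of 8 tested immediate-early genes fell (median -0.26), and within the high set 3 of 10 (median -0.78).

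**Figure D4:**
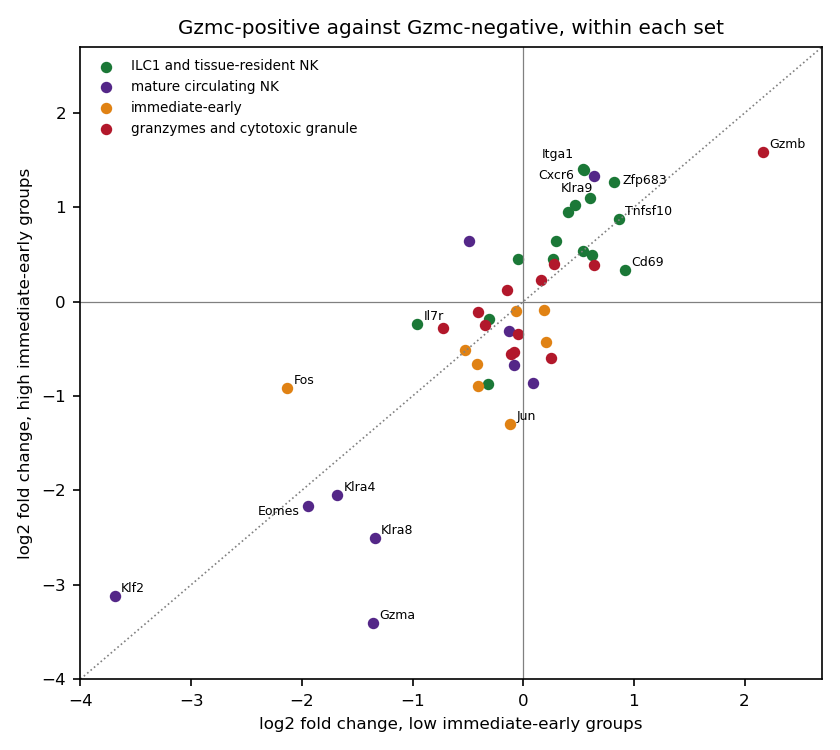
Log2 fold change of members over Gzmc-negative NK cells for list genes within hashtag groups of low (x axis) and high (y axis) immediate-early level, 1 point a gene coloured by list, with the diagonal of equal change dotted. Gzmb (2.16 and 1.59) and Eomes (-1.95 and -2.17) have one sign in both sets, and Itga1 (0.54 and 1.41) and Gzma (-1.36 and -3.41) lie farther from 0 in the high set.

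Gzmb rose within both sets (low 2.16, adjusted p = 4.11e-08; high 1.59, adjusted p = 1.16e-08), and Eomes, Gzma, Klf2, Klra4 and Pdcd1 also passed the test in both with one sign. The residency genes were less uniform. Itga1 was at 0.54 in the low set (adjusted p = 0.174) and 1.41 in the high set (adjusted p = 0.000154), Cxcr6 at 0.55 (adjusted p = 0.0495) and 1.39 (adjusted p = 1.51e-06), and Zfp683 at 0.82 (adjusted p = 0.0527) and 1.27 (adjusted p = 0.0145). Prf1 was at 0.09 (adjusted p = 0.909) and -0.86 (adjusted p = 0.0167). Whether these values differ between the sets was not tested.

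Members with more Gzmc were set beside those with less, as a description, since all share the same libraries. From the 135 cells with 1 Gzmc UMI over the 180 with 2 to 9 to the 127 with at least 10, Gzmb went from 995 over 1853 to 2510 CPM, Gzma from 770 over 625 to 468, Eomes from 95.6 over 38.3 to 30.3 and Klra4 from 125 over 79.6 to 41.7. Cells with a single Gzmc UMI were thus nearer to the comparators in these 4 genes. In the same order Cxcr6 went from 507 over 608 to 638 CPM and Itga1 from 136 over 185 to 167. Itga1 and Eomes were seen together in 16 members, Itga1 alone in 169, Eomes alone in 30 and neither in 227.

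The share of members among kept cells was 0.963% in WT control (65 of 6747 cells, exact 95% interval 0.744 to 1.23%), and 0.804%, 0.638% and 0.764% after acute colitis, chronic colitis and food allergy in WT mice. In App NL-G-F mice it was 0.910% in the control library (61 of 6700, 0.697 to 1.17%), 0.541% and 0.801% with the acute and the chronic form of colitis, and 2.03% with food allergy (131 of 6453, 1.70 to 2.40%). The interval of the App NL-G-F food allergy library lay above those of the other 7, but such intervals cover counting error only. Among NK-gate cells the members' share was 14.0%, 15.1%, 16.3% and 16.5% in the WT libraries in the same order and 15.1%, 9.60%, 16.8% and 26.4% in the App NL-G-F libraries. The 4 hashtag groups of App NL-G-F food allergy were far apart, at 4.98% (53 of 1064) and 2.91% (63 of 2165) for hashtags 6 and 7, both in the low immediate-early set, and at 0.190% and 0.729% for hashtags 4 and 5, both in the high set. Over the series, members were 0.408 to 4.98% of kept cells in 11 low-set hashtag groups (median 2.29%) and 0.183 to 0.795% in 16 high-set groups (median 0.442%), and the ranges overlapped. As a share of NK-gate cells the ranges were 9.77 to 39.0% (median 28.1%) and 4.62 to 18.9% (median 9.56%). With the gate applied after thinning to 1000 UMIs they were 0.284 to 2.31% and 0 to 0.499% of cells.

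**Figure D5:**
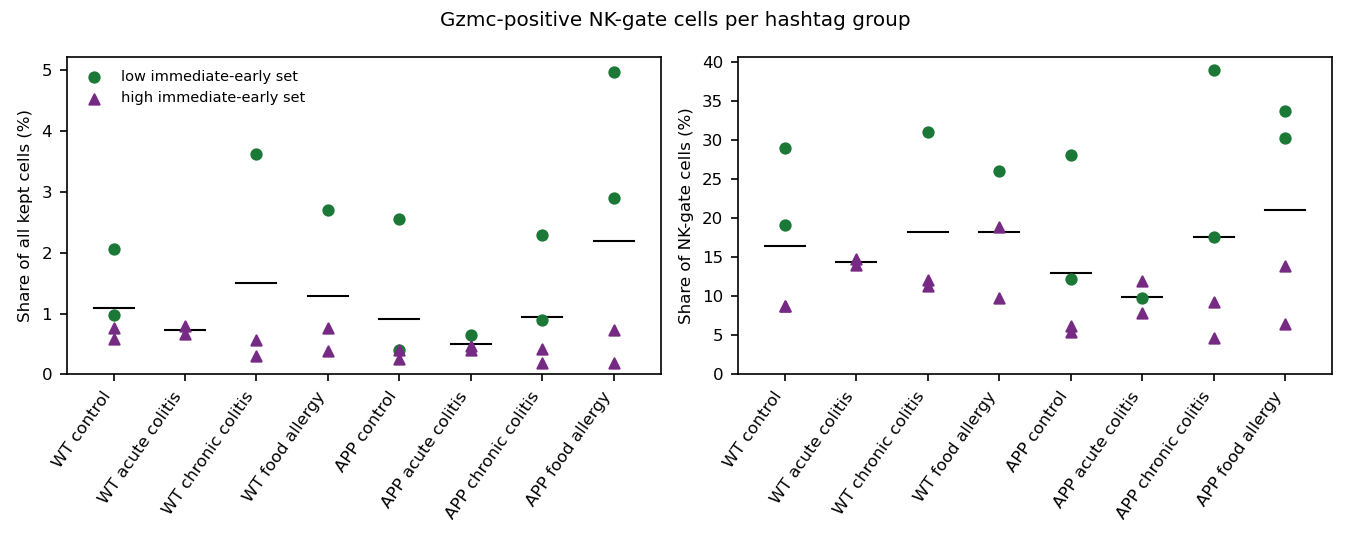
Members as a percent of kept cells (left) and of NK-gate cells (right) in each hashtag group with at least 200 kept cells, by library (x axis), with circles for groups of low and triangles for groups of high immediate-early level in T cells and a line at the mean. On the left the App NL-G-F (APP) food allergy groups span 0.190 to 4.98%, which covers the range of all groups of the other libraries but the lowest one.

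In exact two-sided permutation tests over hashtag groups, none of the 7 comparisons of this share passed. The App NL-G-F chronic colitis comparison used 4 hashtag groups, more than the stated number of samples, so its units may share animals and its p-value may be too small. App NL-G-F food allergy had a mean of 2.20% ± 2.19 (SD, n = 4) against 0.905% ± 1.10 (SD, n = 4) for the App NL-G-F control groups, a difference of 1.30 percentage points (exact permutation p = 0.257, adjusted over 7 comparisons p = 0.943). The other 6 differences ranged from -0.401 to 0.404 percentage points, with exact permutation p from 0.629 to 0.943 and an adjusted p of 0.943 each. App NL-G-F control and WT control differed by -0.191 percentage points. The smallest p these designs allow is 0.0286, or 0.0667 for WT acute colitis with 2 groups against 4. After adjustment over 7 comparisons, a lone comparison at this smallest p could not pass, even with its groups fully separated. The absence of a pass was therefore nearly fixed by the design and does not show that the shares were equal. As a share of NK-gate cells the exact permutation p ranged from 0.257 to 0.886.

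Expression within the members was compared between genotypes and treatments over the 8 libraries in an additive edgeR fit with 2 libraries for each treatment and 4 for each genotype, on 3724 genes. In App NL-G-F mice 2 genes (0.0537%) were higher than in WT mice and 25 (0.671%) were lower. Gzma was at 404, 196, 224 and 135 CPM in the WT members (control, then acute and chronic colitis, then food allergy) and at 861, 1161, 379 and 961 in the App NL-G-F members in that order. It was higher in 4 of 4 treatment pairs (log2 fold change 1.81, SE 0.272, edgeR adjusted p = 0.00117). A Gzma UMI was present in 31 of 170 WT members (18.2%) and 64 of 272 App NL-G-F members (23.5%), and at least 10 UMIs in 4 and 27. The immediate-early sets move with this result, since 40.0%, 88.9%, 55.9% and 65.7% of the WT members but 18.0%, 38.2%, 21.7% and 11.5% of the App NL-G-F members came from the high set. Gzma was at 1.95 within the low set, without WT acute colitis (adjusted p = 5.63e-10), and at -0.25 within the high set (adjusted p = 1). These fits rested on few cells. In the low set WT libraries held 12 to 39 members each and App NL-G-F libraries 21 to 116. In the high set WT libraries held 19 to 32 and App NL-G-F libraries 10 to 15. Whether the sets differ was not tested. The other gene was Gclm, an enzyme subunit of glutathione synthesis, which spanned 22.2 to 64.8 CPM among WT libraries and 96.3 to 152 among App NL-G-F libraries (1.42, adjusted p = 0.0256). Both genes lost the call when the WT acute colitis or the App NL-G-F acute colitis library was left out, with adjusted p up to 0.0667 for Gzma and 0.165 for Gclm.

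The genes lower in App NL-G-F members by the smallest p were H2-Ab1 (-4.08), H2-Eb1 (-4.08), Cd74 (-3.12), Junb (-1.45) and Zfp36 (-1.71). H2-Ab1, H2-Eb1 and Cd74 serve class II antigen presentation and came from few cells, as 5 members held 81.0% of the H2-Ab1 UMIs. Cells with at least 3 UMIs of H2-Aa numbered 7 of 170 WT and 3 of 272 App NL-G-F members. With cells of other lineages left out, H2-Ab1 and H2-Eb1 were too low to be tested, Cd74 was at -1.30 (adjusted p = 0.0118), and 3 genes (0.0875%) were higher and 21 (0.613%) lower. That step removed all cells with at least 3 UMIs of H2-Aa, itself a class II gene. Lower class II counts therefore followed from it, and the source of the genotype difference was not tested. Junb and Zfp36 are immediate-early genes. Junb spanned 913 to 1501 CPM among WT libraries and 262 to 575 among App NL-G-F libraries (adjusted p = 0.000635), but within the low immediate-early set its change was -0.18 (adjusted p = 0.951) and that of Zfp36 was 0.25 (adjusted p = 0.97). Genotype and immediate-early state of the hashtag groups cannot be told apart for these genes in the pooled libraries. Itga1 (-0.24), Cxcr6 (0.16), Eomes (-0.20), Gzmb (0.87) and Prf1 (0.32) did not pass the test between genotypes, with adjusted p from 0.123 to 0.956.

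For the treatments, edgeR called 0 genes in acute colitis (250 genes had an unadjusted p below 0.05, and DESeq2 called 0) and 0 in food allergy (231 genes, and DESeq2 called 0). In chronic colitis 1 gene (0.0269%) was higher and 0 lower (180 genes had an unadjusted p below 0.05, and DESeq2 called 1 and 0). That gene was Ly6c2, a surface protein of monocytes and of some lymphocytes, at 1160 and 581 CPM in the WT and App NL-G-F chronic colitis members against 404 and 144 in the controls (1.75, SE 0.26, adjusted p = 0.00887). Without cells of other lineages its change was 1.02 (adjusted p = 0.323), and it lost the call without the WT or the App NL-G-F acute colitis library (adjusted p up to 0.0621). The fit without those cells called 5 genes higher (0.146%) in acute colitis, 1 lower (0.0292%) in chronic colitis and 2 lower (0.0583%) in food allergy. On simulated counts of the same size, with 34 to 131 members per library, the acute colitis comparison recovered 80.4% of genes changed 4-fold and 19.6% of those changed 2-fold, and 9.43% of its calls were false, against a nominal 5%. For the comparison of genotypes 6.34% of simulated calls were false.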

How the data were processed

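Mouse brain leukocytes were profiled by droplet single-cell RNA sequencing, and the authors deposited 1 matrix per library with UMI counts per gene and barcode beside hashtag counts. The submitters' processing notes name Cell Ranger 6.1.2 and mm10, while the matrix header carries version 4. Matching receptor sequencing was not analysed here. The raw counts as deposited were not normalized, barcodes were filtered and gated as described above, hashtags were called by the top count, and no other doublet step was used. Counts were summed per library and cell set and tested with edgeR 4.0.16 in R 4.3.3 (TMM normalization, filterByExpr, quasi-likelihood test, Benjamini-Hochberg adjustment, threshold 0.05), with limma 3.58.1 loaded by edgeR and DESeq2 1.42.0 as an alternative. Shares were compared with exact permutation tests over all splits of the hashtag groups. Intervals are exact binomial at 95% (scipy 1.17.1) and cover counting error only. On simulated counts the comparison of members with comparators recovered 98.9% of genes changed 4-fold and 74.0% of those changed 2-fold, and 7.96% of its calls were false.

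The text names the gate genes, list genes with an adjusted p below 0.05 and a log2 fold change of at least 1 in size, 12 defining genes, the 10 largest rises and falls outside the lists at 50 CPM or more, and up to 5 genes each way for genotype and treatment. Some genes that these rules name are not reported here. Other list genes that the text names (such as Ctla2a, Ltb, Ccl4, Ets1, Id2, Il2rb, Il2rg, Cish, Car2, Cd9 and H2afz) were chosen after their values were seen. The members, the gene lists and the tests were chosen with earlier results of these data known. Lists without a result above were ILC2 (1 of 6 tested genes rose and 1 fell), ILC3 (1 tested, 0 called) and erythroid cells (0 tested). ILC2, T and B cells were gated by Il1rl1 and Gata3, by Cd3e and Cd3d, and by Cd79a and Cd79b. Alternatives were another normalization, no filter on low counts, no library block, stricter gates, thinning to 1000 UMIs, hashtag groups as samples and leaving out each library. Leaving out cells of other lineages and splitting hashtag groups by immediate-early level were added after seeing the data. The promoter windows are RefSeq's and all 8 granzyme genes were matched by symbol.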

Additional observations from a re-analysis of the deposited data

Results flagged for a closer look

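In App NL-G-F control, hashtag group 4 stood apart from the other 3 groups of its library. Its members were 2.55% of kept cells (43 of 1685), against 0.256 to 0.408% in hashtags 5, 6 and 7, and its gap to the next group was 0.934 of the whole range. For normally spread values, chance flags about 1 in 20 sets of 4 hashtag groups. Several libraries were screened on both share measures, so a flag somewhere by chance is likelier than that. The group belongs to the low immediate-early set, as does hashtag 5 at 0.408%, and the cause was not tested.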

How the results depend on the processing

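With 1 library per genotype and treatment, differences between conditions rest on 8 sums of 34 to 131 cells, and the intervals and p-values say nothing of single mice. Rises and falls of members against comparators numbered 197 and 325. Higher genes were 348 against comparators with Gzma, 76 after thinning, 116 with hashtag groups as samples, 49 within the low and 61 within the high immediate-early set, and 149 to 190 without 1 library. Lower genes were 95 after thinning, 150 without the library block that pairs the cell sets, 162 by DESeq2, 572 without a filter on low counts, 81 within the low set, 103 within the high set, and 253 to 320 without 1 library. Part of these drops goes with fewer genes tested (3978 after thinning, 3938 in the low set and 6553 in the high set, against 8801). Over the 80 named genes and the alternatives that tested them, 1442 values kept their direction and side of the threshold, 95 lost the call, 5 gained it and 13 changed sign. A gene that an alternative did not test, or for which it gave no adjusted p, is not in these counts. Sign changes were Cd74 (0.85) and S100a9 (0.0152) without cells of other lineages, Iglc1 by DESeq2 (0.52), Il7r against comparators with Gzma (1.07), Prf1 in the low set (0.0917), and Tbx21, which lay near 0 throughout (-0.0129 with at least 3 NK genes, -0.000324 by hashtag groups, -0.0333 without the filter, -0.0738 with stricter T cell exclusion, -0.0360 in the low set, and -0.0129 to 0.0876 when 1 library was left out, below 0 without the App NL-G-F acute colitis, App NL-G-F chronic colitis or WT food allergy library). Without WT control Ifit1 (1.06), and without WT food allergy Tcrg-C1 (-2.08), lost the call, while H2-Aa did so in 6 of 8 such fits.

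App NL-G-F against WT gave 2 higher and 25 lower genes, 1 and 13 by DESeq2, 15 and 58 without the filter, 14 and 7 within the low set, 0 and 0 within the high set, and 0 to 27 and 11 to 45 without 1 library. Higher genes were 0 without either acute colitis library and 26 and 27 without the WT and App NL-G-F chronic colitis libraries. Acute colitis gave 0 and 0, but 5 higher without cells of other lineages, 22 and 4 without the filter, 9 and 7 in the low set (where acute colitis was 1 library, of 21 App NL-G-F members, so these calls have no replicate within the treatment), and 0 to 50 and 0 to 11 without 1 library. Chronic colitis gave 1 and 0, but 0 and 1 without cells of other lineages, 21 and 9 without the filter, 2 and 3 in the low set, 0 higher in the high set, and 0 to 50 and 0 to 14 without 1 library. Food allergy gave 0 and 0, but 2 lower without cells of other lineages, 22 and 3 without the filter, 7 and 3 in the low set, and 0 to 39 and 0 to 10 without 1 library. For all 3 treatments the highest counts came without the App NL-G-F control library. The cause of these shifts was not tested.

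Differences in the share of members, in percentage points, changed sign after thinning (App NL-G-F chronic colitis -0.186, App NL-G-F against WT control 0.226), with at least 2 Gzmc UMIs (App NL-G-F chronic colitis -0.0254), and within the high immediate-early set (WT acute colitis 0.0568, WT chronic colitis -0.237, WT food allergy -0.0984, App NL-G-F acute colitis 0.0999, App NL-G-F chronic colitis -0.0269). Leaving out 1 hashtag group gave -0.538 to -0.0421 for WT acute colitis, -0.659 to 1.004 for WT chronic colitis, -0.520 to 0.635 for WT food allergy, -0.617 to 0.148 for App NL-G-F acute colitis, -0.402 to 0.593 for App NL-G-F chronic colitis, 0.372 to 1.97 for App NL-G-F food allergy and -0.740 to 0.132 for App NL-G-F against WT control. Hashtag groups could not be paired between conditions, because each genotype and treatment was 1 library and the labels give no replicate numbers. Treatment entered the genotype fit as a term. Library entered the comparison of cell sets as a block, which paired members with comparators of the same library.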
